A study of Homo sapiens with 9 samples.

Results

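XPC, DDB1, DDB2, ERCC8, ERCC6, XPA, ERCC1, ERCC4 and ERCC5 are 9 genes of human nucleotide excision repair, and inherited loss of most of them underlies xeroderma pigmentosum or Cockayne syndrome. They were taken by symbol, matched to Ensembl IDs, from a deposited table of 34789 genes, and each of the 9 had 1 row. The table held RNA sequencing of H1299 cells, an established epithelial-like line of non-small cell lung cancer, labelled WT in genotype. The groups were cells transfected by RNAiMAX with 50 nM siFOXN3-1, with 50 nM siFOXN3-2, both siRNAs against the forkhead transcription factor FOXN3, and with 50 nM siControl, with 3 samples in each group. All 9 samples thus carried a transfected siRNA, and the labels give no time after transfection and do not say whether replicates were separate cultures. A p-value of a change here therefore uses the spread within groups, pooled over the 3 groups. That spread is moderated toward that of genes of similar level, and it may be only technical. The titles of siFOXN3-2 replicates 2 and 3 name siFOXN3-2, while their treatment labels name siFOXN4 and siFOXN5, and the tests of members with siFOXN3-2, and the list counts, are given with and without them.

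Nucleotide excision repair removes bulky lesions, such as ultraviolet photoproducts, by cutting out a short single-stranded piece of DNA and filling the gap. In the global branch XPC and the DDB1-DDB2 complex find lesions anywhere in the genome, and in the transcription-coupled branch ERCC6 (CSB) and ERCC8 (CSA) act where RNA polymerase II has stalled. Both branches then share lesion opening by TFIIH, lesion checking by XPA, and incision by the nucleases ERCC5 (XPG) and ERCC1-ERCC4 (XPF). No damaging agent is named in the labels of these samples.

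FOXN3 itself was at 1.28, 1.24 and 1.16 FPKM (fragments per kilobase of exon and per M fragments, a level per length) with siFOXN3-1, at 0.858, 0.958 and 1.06 FPKM with siFOXN3-2, and at 4.85, 5.25 and 5.00 FPKM with siControl. Its mean was 24.3% of the siControl mean with siFOXN3-1 and 19.0% with siFOXN3-2, and the last 2 values of siFOXN3-2 come from the samples with the differing treatment labels. Depth was 17.0 to 19.6 M fragments per sample. KRT8, KRT18 and VIM, from the list for the carcinoma line, were abundant in every sample. KRT18 was at 218 to 239 FPKM with siFOXN3-1, 163 to 181 with siFOXN3-2 and 175 to 196 with siControl. VIM was higher, at 539 to 572 FPKM with siFOXN3-1, 443 to 499 with siFOXN3-2 and 448 to 503 with siControl. Of the lung epithelial markers with a row, AGER was at 1.98 to 3.31 FPKM and SFTPB at no more than 0.0634 FPKM over all samples, and none of 5 endothelial markers reached 1 FPKM. Of 5 immune markers none reached 1 FPKM with siFOXN3-1 or siControl and 1 (LYZ) did with siFOXN3-2. Bulk RNA cannot tell fewer cells of a type from less RNA per cell.

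Changes are given as differences of log2(FPKM + 1) from a limma fit over all 12707 genes that averaged at least 1 FPKM, with Benjamini-Hochberg adjusted p-values over all of them and 0.05 as the threshold. The added 1 FPKM shrinks the change of genes at a few FPKM or less. With siFOXN3-1, 6 of 8 tested members were lower (XPC, DDB2, XPA, ERCC4, ERCC6 and DDB1) and 0 were higher, where 45.3% of all tested genes were called lower and 19.3% higher. With siFOXN3-2, 5 of 8 were lower (XPC, DDB2, ERCC4, XPA and ERCC6) and 0 were higher, where 39.2% of all tested genes were called lower and 24.1% higher. The median log2 change was -0.44 over the members and -0.17 over all tested genes with siFOXN3-1, and -0.39 over the members and -0.10 over all tested genes with siFOXN3-2. ERCC4 and ERCC6 passed the filter on low values only through siControl, where they were higher, and ERCC5 did not pass it, so these counts and medians describe 8 of 9 genes and support nothing by themselves. With voom on recovered reads the count of higher members was also 0 with either siRNA. There 19.8% of all tested genes were called higher with siFOXN3-1 and 24.6% with siFOXN3-2. That count was 0 too at an unadjusted limma p under 0.05. By that rule 8665 of the 12707 tested genes passed in either direction with siFOXN3-1 and 8504 with siFOXN3-2. Both comparisons share the siControl samples.

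Because the median of all tested genes lay below 0, each change was also computed after scaling samples by the median of ratios, which moved the median of all tested genes to 0.00 with siFOXN3-1 and to -0.00 with siFOXN3-2. On that scale 31.0% of all tested genes were called lower and 31.3% higher with siFOXN3-1 (3939 and 3979 genes, against 5762 and 2458 on the deposited scale). With siFOXN3-2 the shares were 31.1% lower and 30.8% higher (3948 and 3912 genes, against 4983 and 3066). XPC, DDB2 and XPA were called lower on both scales with both siRNAs. ERCC4 and ERCC6 were too, but among the genes that the filter kept through siControl, so their calls with no filter stand beside their values. DDB1 and ERCC1 were the members whose call depended on the scale: with siFOXN3-1, the DDB1 call was lost and ERCC1 was called higher, so that 5 members were lower and 1 was higher.

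**Figure D1:**
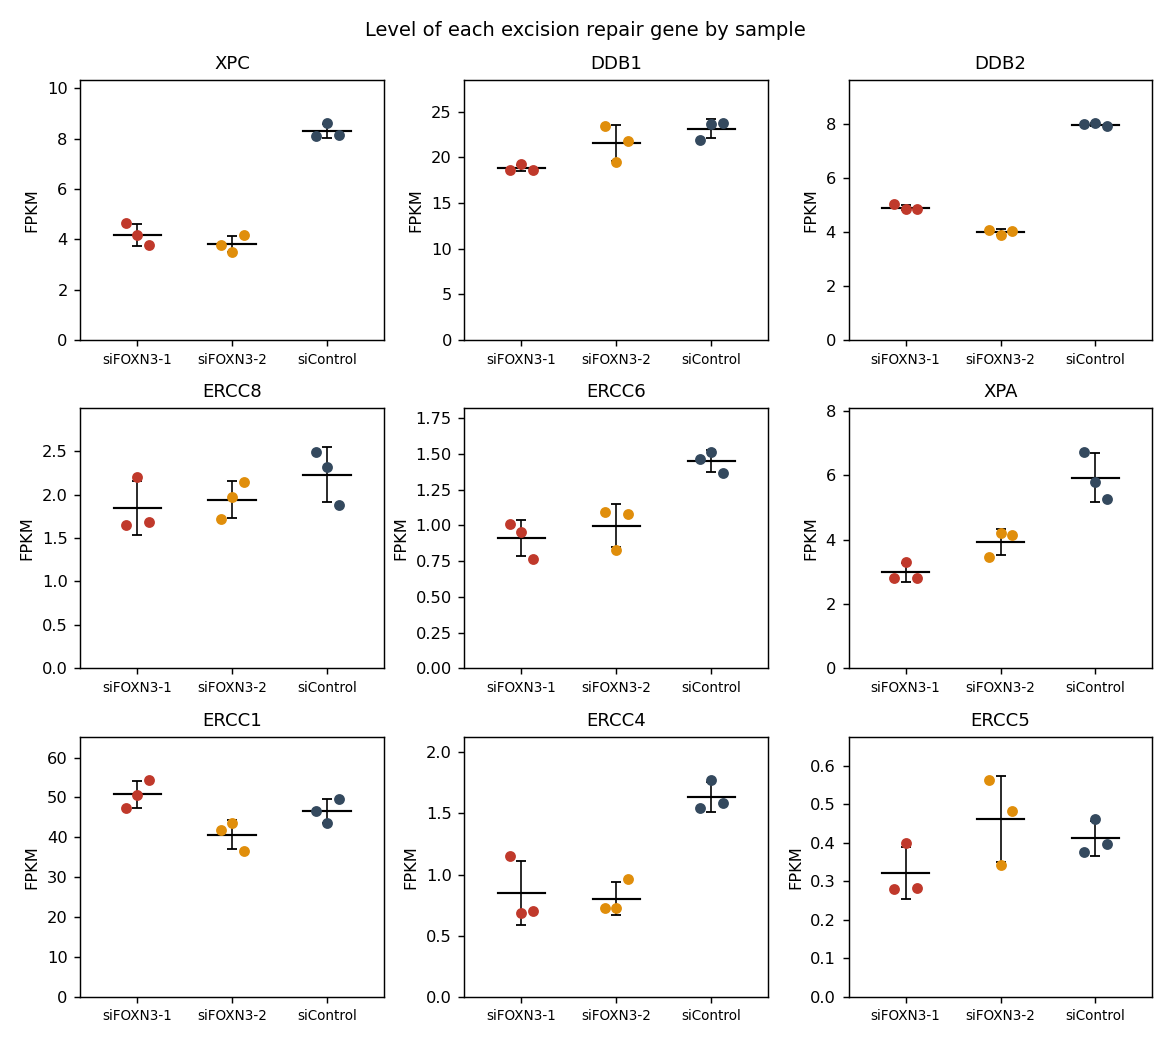
Level in FPKM (y axis, from 0) of the 9 members in each sample of siFOXN3-1, siFOXN3-2 and siControl; points are samples, the long bar is the group mean and the whiskers are the SD (n = 3). XPC, DDB2, XPA, ERCC4 and ERCC6 have every siRNA sample below every siControl sample, while DDB1 with siFOXN3-2, ERCC1 with siFOXN3-1, ERCC8 and ERCC5 overlap with siControl. ERCC4 and ERCC6 passed the filter only through siControl. Of all tested genes 45.3% were called lower with siFOXN3-1 and 39.2% with siFOXN3-2, and the share that separates in this way was not computed.

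XPC is the sensor that binds the unpaired strand opposite a lesion and opens the global branch. It lies on chromosome 3 at 14145147 to 14178783, minus strand (GRCh38, GENCODE 29). XPC was at 4.63, 4.15 and 3.76 FPKM with siFOXN3-1, at 3.76, 3.50 and 4.15 FPKM with siFOXN3-2, and at 8.12, 8.62 and 8.16 FPKM with siControl. Every siRNA sample was below every siControl sample, and the siRNA groups overlapped with each other. The group means were 50.4% of the siControl mean with siFOXN3-1 and 45.9% with siFOXN3-2. XPC fell by 0.85 on the log2 scale with siFOXN3-1 (SE 0.0763, limma adjusted p = 6.61e-06) and by 0.95 with siFOXN3-2 (adjusted p = 3.36e-06). Its log2 change was the lowest among the 8 tested members with siFOXN3-2. With siFOXN3-1 it was close to that of XPA (-0.80), which was lower than XPC without siControl replicate 3 (-0.87 for XPA and -0.86 for XPC) and without siFOXN3-1 replicate 2 (-0.86 for XPA and -0.84 for XPC). With voom on recovered reads, where no FPKM is added, the changes with siFOXN3-1 were -0.99 for XPC, -0.98 for XPA and -0.98 for ERCC4. On the log2(FPKM + 1) scale 7.52% of all tested genes had a lower change than XPC with siFOXN3-1 and 3.93% with siFOXN3-2. With median-ratio scaling the change was -0.67 with siFOXN3-1 and -0.85 with siFOXN3-2. The siRNAs did not differ beyond the threshold (siFOXN3-2 minus siFOXN3-1 -0.11, 95% interval -0.28 to 0.06, adjusted p = 0.300). Without siFOXN3-2 replicates 2 and 3 the change with siFOXN3-2 was -0.97 (adjusted p = 0.000207).

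RAD23B, the partner that keeps XPC stable in its complex, moved the other way. RAD23B was at 82.0, 80.3 and 81.5 FPKM with siFOXN3-1, at 83.7, 79.4 and 85.2 FPKM with siFOXN3-2, and at 60.1, 64.8 and 63.2 FPKM with siControl. It rose by 0.37 on the log2 scale with siFOXN3-1 (limma adjusted p = 0.000106) and by 0.40 with siFOXN3-2 (adjusted p = 7.43e-05, and 0.41 with adjusted p = 0.00167 without siFOXN3-2 replicates 2 and 3). The ratio of XPC to RAD23B within a sample, which does not depend on how samples are scaled, was 0.0514 ± 0.00518 with siFOXN3-1, 0.0459 ± 0.00247 with siFOXN3-2 and 0.132 ± 0.00311 with siControl (SD, n = 3 each).

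DDB2, the subunit that holds the photoproduct, lies on chromosome 11 at 47214465 to 47239240, plus strand. DDB2 was at 5.02, 4.84 and 4.85 FPKM with siFOXN3-1, at 4.07, 3.87 and 4.06 FPKM with siFOXN3-2, and at 7.99, 8.04 and 7.93 FPKM with siControl. The groups did not overlap, and within a group the samples lay close together, with an SD of 0.102 FPKM with siFOXN3-1, 0.109 FPKM with siFOXN3-2 and 0.0565 FPKM with siControl. The means were 61.4% of the siControl mean with siFOXN3-1 and 50.1% with siFOXN3-2. DDB2 fell by 0.61 on the log2 scale with siFOXN3-1 (SE 0.0502, limma adjusted p = 3.89e-06) and by 0.85 with siFOXN3-2 (adjusted p = 5.59e-07). Without siFOXN3-2 replicates 2 and 3 the change with siFOXN3-2 was -0.83 (adjusted p = 7.95e-05). With median-ratio scaling the change was -0.43 with siFOXN3-1 and -0.75 with siFOXN3-2. In the share of all tested genes with a lower log2 change, DDB2 stood at 16.7% with siFOXN3-1 and 5.90% with siFOXN3-2.

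DDB1, the adaptor that joins DDB2, and in the transcription-coupled branch ERCC8, to the CUL4 ubiquitin ligases, was the second most abundant member and moved less. It lies on chromosome 11 at 61299451 to 61342596, minus strand. DDB1 was at 18.6, 19.2 and 18.6 FPKM with siFOXN3-1, at 23.4, 19.5 and 21.8 FPKM with siFOXN3-2, and at 21.9, 23.7 and 23.7 FPKM with siControl. All siFOXN3-1 samples were below siControl, while siFOXN3-2 overlapped with it. DDB1 fell by 0.28 on the log2 scale with siFOXN3-1 (SE 0.0677, limma adjusted p = 0.00414), and this call was lost with median-ratio scaling (-0.08, adjusted p = 0.279). With siFOXN3-2 its change was -0.10 (95% interval -0.25 to 0.05, adjusted p = 0.225), 0.01 with median-ratio scaling, and 0.02 without siFOXN3-2 replicates 2 and 3 (adjusted p = 0.864). The ratio of DDB2 to DDB1 within a sample was 0.261 ± 0.00906 with siFOXN3-1, 0.186 ± 0.0125 with siFOXN3-2 and 0.346 ± 0.0162 with siControl (SD, n = 3 each).

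XPC and DDB2 had the lowest changes of the global branch, so the sequences at their start sites are shown, from RefSeq promoter windows of 300 bases (GRCh38.p14, 250 bases before to 50 after a start). At least 1 window matched each of the 9 members, with 13 windows in all. The motifs were chosen after the values were seen and were searched on both strands. The forkhead core TGTTTAC was in 3.42% of all 35116 windows and in none of the 13, and GACGC, the FHL motif of forkhead factors of this family, was in 35.3% of all windows and in windows of XPC, DDB2, ERCC1, ERCC5 and ERCC6. The E2F-type motif GGCGGGAA was in 3.16% of all windows and, among the members, once in the XPC window and at 2 places in a DDB2 window, of which the 1 before the start is shown. In the lines below capitals mark the motif, in the strand of the gene, so that a motif on the other strand reads as its reverse complement. The first is chr3:14178822-14178851 (minus strand), the second chr3:14178602-14178631 (minus strand) and the third chr11:47214848-47214877 (plus strand). In GENCODE 29 both XPC stretches lie in the first exon of LSM3 on the other strand, the second of them also in the 5′ UTR of XPC, and the DDB2 stretch lies in no exon. A match describes letters and is not a binding site.
XPC E2F-type: cctgcgccctTTCCCGCCtctcgcgagaac
XPC FHL: gcgttctagcgcatcgcggccgggtGCGTC
DDB2 E2F-type: ccctggcgcagTTCCCGCCcctcccgggag

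**Figure D2:**
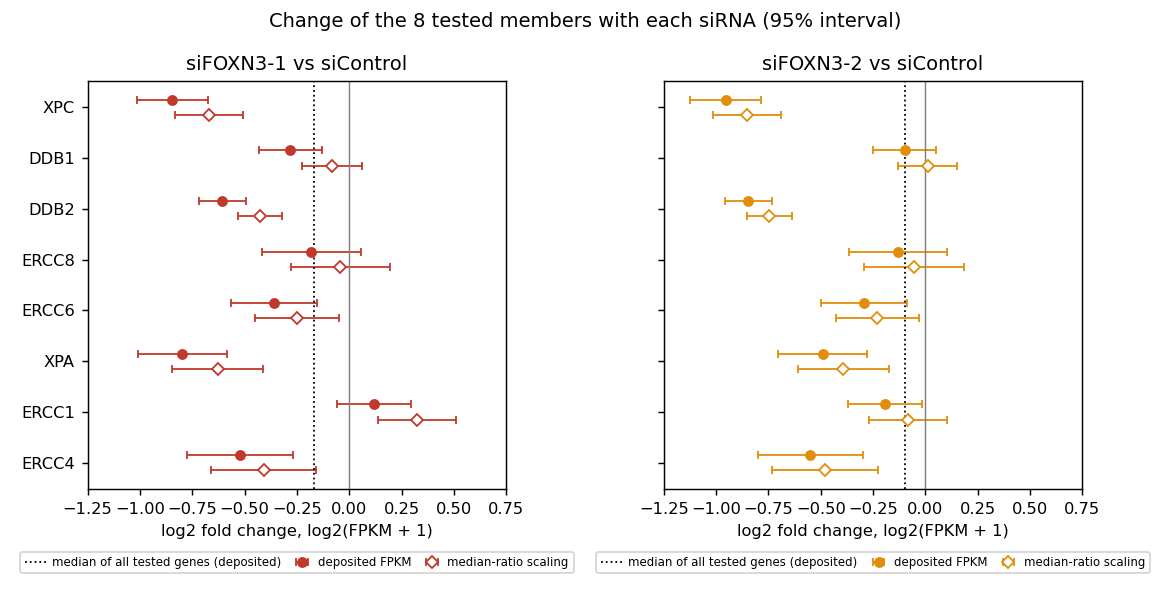
Log2 fold change (x axis, difference of log2(FPKM + 1)) of the 8 tested members with siFOXN3-1 (left) and siFOXN3-2 (right) against siControl, with 95% intervals; filled circles use deposited FPKM, open diamonds median-ratio scaling, and the dotted line is the median of all tested genes on the deposited scale. All filled circles except that of ERCC1 with siFOXN3-1 lie left of the dotted line, that of DDB1 with siFOXN3-2 only just. The intervals on deposited FPKM of XPC, DDB2, XPA and ERCC4 lie wholly left of it with both siRNAs. ERCC1 lies on opposite sides of 0 with siFOXN3-1 (0.12) and siFOXN3-2 (-0.19).

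ERCC6, an ATPase that binds stalled RNA polymerase II and calls in the transcription-coupled branch, was a low member. It lies on chromosome 10 at 49455368 to 49539538, minus strand. ERCC6 was at 1.01, 0.950 and 0.768 FPKM with siFOXN3-1, at 1.09, 0.826 and 1.08 FPKM with siFOXN3-2, and at 1.46, 1.52 and 1.36 FPKM with siControl. Its long exons gave 225 to 323 reads with siFOXN3-1, 255 to 326 with siFOXN3-2 and 447 to 487 with siControl, with no overlap between siRNA and siControl samples. ERCC6 fell by 0.36 on the log2 scale with siFOXN3-1 (SE 0.0921, limma adjusted p = 0.00592) and by 0.30 with siFOXN3-2 (adjusted p = 0.0173). With no filter the adjusted p was 0.0165 with siFOXN3-1 and 0.0396 with siFOXN3-2. With voom on recovered reads, where no FPKM is added, the log2 changes were -0.67 with siFOXN3-1 and -0.55 with siFOXN3-2. The call with siFOXN3-2 was lost without siControl replicate 2 (adjusted p = 0.0531), without siFOXN3-2 replicate 2 (0.0628) and without siFOXN3-2 replicates 2 and 3 (0.174), and quantile normalization ended both calls (0.158 with siFOXN3-1 and 0.224 with siFOXN3-2).

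ERCC8, the substrate adaptor that links the DDB1-CUL4 ligase to ERCC6, lies on chromosome 5 at 60873831 to 60945073, minus strand. ERCC8 was at 1.65, 2.21 and 1.69 FPKM with siFOXN3-1, at 1.72, 1.97 and 2.14 FPKM with siFOXN3-2, and at 2.50, 2.31 and 1.88 FPKM with siControl. Both siRNA groups overlapped with siControl. The log2 changes were -0.18 with siFOXN3-1 (95% interval -0.42 to 0.05, limma adjusted p = 0.156) and -0.13 with siFOXN3-2 (-0.37 to 0.10, adjusted p = 0.301), close to the medians of all tested genes. The change with siFOXN3-2 without its replicates 2 and 3 was -0.24 (adjusted p = 0.218). Of its 5448 exon bases, 28.3% are shared with the pseudogene GNL3LP1 on the same strand, so its reads are partly uncertain. The ratio of ERCC8 to ERCC6 was 2.05 ± 0.365 with siFOXN3-1, 1.98 ± 0.407 with siFOXN3-2 and 1.53 ± 0.165 with siControl (SD, n = 3 each).

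XPA, the scaffold that checks the lesion and positions the incision complex, lies on chromosome 9 at 97674909 to 97697357, minus strand, and shares no exon base with another annotated gene. XPA was at 2.83, 3.32 and 2.80 FPKM with siFOXN3-1, at 3.46, 4.20 and 4.13 FPKM with siFOXN3-2, and at 6.74, 5.80 and 5.27 FPKM with siControl. The groups did not overlap, with siFOXN3-2 between siFOXN3-1 and siControl. Reads per sample were few for its short exons, at 90 to 111 with siFOXN3-1, 108 to 142 with siFOXN3-2 and 189 to 231 with siControl. XPA fell by 0.80 on the log2 scale with siFOXN3-1 (SE 0.0955, limma adjusted p = 4.56e-05), to 50.3% of the siControl mean. It fell by 0.49 with siFOXN3-2 (adjusted p = 0.00125), to 66.2% of the siControl mean, and by 0.63 without siFOXN3-2 replicates 2 and 3 (adjusted p = 0.00493). With median-ratio scaling the change was -0.63 with siFOXN3-1 and -0.39 with siFOXN3-2.

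The 5′ nuclease is a dimer of ERCC4, which holds the active site, and ERCC1, which binds DNA and XPA. The levels of these partners differed widely. ERCC1 (chromosome 19, 45407333 to 45478828, minus strand) was the most abundant member. ERCC1 was at 47.4, 50.5 and 54.4 FPKM with siFOXN3-1, at 41.9, 43.6 and 36.6 FPKM with siFOXN3-2, and at 46.5, 43.7 and 49.7 FPKM with siControl. The siFOXN3-1 samples overlapped with siControl, and the highest siFOXN3-2 sample (43.6) was just below the lowest siControl sample (43.7). Its log2 change was 0.12 with siFOXN3-1 (95% interval -0.06 to 0.30, limma adjusted p = 0.211) and -0.19 with siFOXN3-2 (-0.37 to -0.02, adjusted p = 0.0531). With median-ratio scaling the change with siFOXN3-1 was 0.32 (adjusted p = 0.00656) and that with siFOXN3-2 was -0.08 (adjusted p = 0.402). On the deposited scale the siFOXN3-2 change passed the threshold with voom on recovered reads (adjusted p = 0.0317), without siControl replicate 2 (0.0416), without siFOXN3-1 replicate 1 (0.0492), without siFOXN3-2 replicate 2 (0.0303), over protein-coding genes only (0.0365) and over genes averaging at least 5 FPKM (0.0444). With quantile normalization it was called lower at -0.28 (adjusted p = 0.00417), and without siFOXN3-2 replicates 2 and 3 it was -0.15 (adjusted p = 0.233). CD3EAP lies on the other strand over 28.6% of the ERCC1 exon bases, and the library kit does not mark strand.

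ERCC4 (chromosome 16, 13920157 to 13952345, plus strand) was at 1.15, 0.687 and 0.702 FPKM with siFOXN3-1, at 0.723, 0.724 and 0.961 FPKM with siFOXN3-2, and at 1.54, 1.77 and 1.59 FPKM with siControl. siFOXN3-1 replicate 1 was the highest siRNA sample, with 186 reads against 106 and 104 in replicates 2 and 3, and was still below all siControl samples at 244 to 288 reads. ERCC4 fell by 0.52 on the log2 scale with siFOXN3-1 (SE 0.113, limma adjusted p = 0.00231) and by 0.55 with siFOXN3-2 (adjusted p = 0.00176). With no filter the adjusted p was 0.00991 with siFOXN3-1 and 0.00809 with siFOXN3-2. With siFOXN3-2 replicate 1 alone against siControl the change was -0.61 (adjusted p = 0.0164). Without the added 1 FPKM the log2 changes were larger, at -0.98 with siFOXN3-1 and -1.03 with siFOXN3-2 (voom on recovered reads), and the group means were 51.8% of the siControl mean with siFOXN3-1 and 49.1% with siFOXN3-2. The unnamed gene AC010401.1 lies on the other strand over 25.7% of its exon bases. The ratio of ERCC4 to ERCC1 was 0.0169 ± 0.00636 with siFOXN3-1, 0.0200 ± 0.00541 with siFOXN3-2 and 0.0352 ± 0.00466 with siControl (SD, n = 3 each).

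ERCC5, the 3′ nuclease (chromosome 13, 102807146 to 102876001, plus strand), was the lowest member and below the filter of 1 FPKM. ERCC5 was at 0.279, 0.399 and 0.284 FPKM with siFOXN3-1, at 0.563, 0.342 and 0.483 FPKM with siFOXN3-2, and at 0.377, 0.461 and 0.397 FPKM with siControl, from 41 to 79 reads per sample. The groups overlapped. With voom on recovered reads and no filter, its log2 change was -0.37 with siFOXN3-1 (95% interval -0.85 to 0.11, adjusted p = 0.250) and 0.14 with siFOXN3-2 (-0.31 to 0.59, adjusted p = 0.669). Whether its change differed from that of another member was not tested. Of its 8242 exon bases, 63.2% belong also to the readthrough gene BIVM-ERCC5 on the same strand, which has no row of its own in the table used here, so its level is uncertain. BIVM, the upstream gene of that readthrough, was at 0.876 ± 0.120 FPKM with siFOXN3-1, 1.56 ± 0.0260 FPKM with siFOXN3-2 and 1.94 ± 0.342 FPKM with siControl (SD, n = 3 each).

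The 4 ratios of partners were compared on the log2 scale by two-sided exact permutation tests, in 12 comparisons. The smallest p that 3 against 3 samples allow is 0.1, and that of 6 siRNA samples against 3 siControl samples is 0.0238. XPC to RAD23B, DDB2 to DDB1 and ERCC4 to ERCC1 reached these smallest values, with every siRNA sample below every siControl sample. ERCC8 to ERCC6 gave an exact p of 0.2 with each siRNA and 0.0952 for both. How often ratios of other genes separate in this way was not computed, and ERCC4 passed the filter only through siControl. The tests of 6 samples take both siRNAs as 1 group, in which 2 samples have differing treatment labels. After Benjamini-Hochberg adjustment over the 12 comparisons the p-values were 0.0952 to 0.2, and none passed. Over both siRNAs together the ratio relative to that of siControl was 0.366 for XPC to RAD23B, 0.509 for ERCC4 to ERCC1, 0.637 for DDB2 to DDB1 and 1.302 for ERCC8 to ERCC6. In siFOXN3-2 replicate 1 alone the ratios were 0.0449 for XPC to RAD23B, 0.174 for DDB2 to DDB1, 0.0172 for ERCC4 to ERCC1 and 1.57 for ERCC8 to ERCC6. A ratio shows unequal change of partners and not which of them changed.

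**Figure D3:**
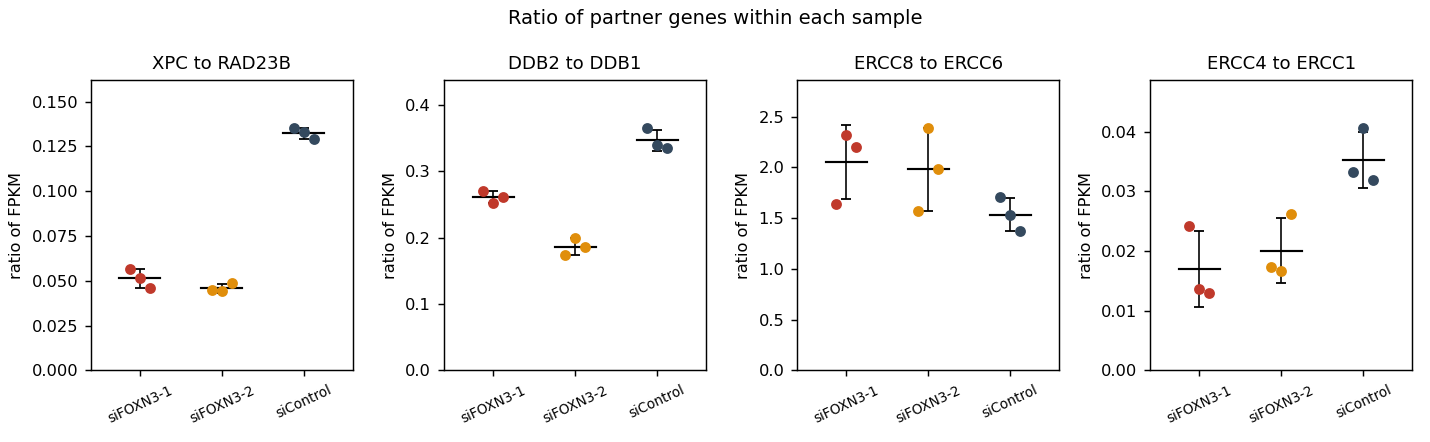
Ratio of the FPKM of partner genes within each sample (y axis, from 0) for siFOXN3-1, siFOXN3-2 and siControl; points are samples, the long bar is the mean and the whiskers are the SD (n = 3). For XPC to RAD23B, DDB2 to DDB1 and ERCC4 to ERCC1 all siRNA samples lie below the siControl samples, and for ERCC8 to ERCC6 they overlap. How often ratios of other genes separate in this way was not computed.

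The siRNAs differed from each other in 3 of 8 tested members on the deposited scale, with 1 higher and 2 lower in siFOXN3-2 than in siFOXN3-1, where 25.4% of all tested genes were called higher and 10.7% lower. XPA was higher with siFOXN3-2 by 0.31 on the log2 scale (SE 0.0955, limma adjusted p = 0.0302), with means of 3.93 ± 0.407 FPKM for siFOXN3-2 and 2.98 ± 0.293 FPKM for siFOXN3-1 (SD, n = 3 each). This call was lost without any 1 of siFOXN3-1 replicate 1 (adjusted p = 0.0841), siFOXN3-1 replicate 3 (0.0865), siFOXN3-2 replicate 2 (0.0830) or siFOXN3-2 replicate 3 (0.0856), and with median-ratio scaling (0.24, adjusted p = 0.0929). DDB2 was lower with siFOXN3-2 by 0.24 (difference -0.24, adjusted p = 0.00493) and ERCC1 by 0.31 (difference -0.31, adjusted p = 0.0122), and both calls held with median-ratio scaling at -0.32 and -0.41. Without siFOXN3-2 replicates 2 and 3 the difference was 0.17 for XPA (adjusted p = 0.391), -0.22 for DDB2 (0.0548) and -0.27 for ERCC1 (0.0841), with 1 siFOXN3-2 sample left that is assumed to vary like the others, and DDB1 was called higher with siFOXN3-2 (0.30, adjusted p = 0.0240). DDB1 differed by 0.18 (95% interval 0.03 to 0.33, adjusted p = 0.0583), and by 0.25 without siFOXN3-2 replicate 2 (adjusted p = 0.0109). The intervals of ERCC4 (-0.28 to 0.22), ERCC6 (-0.14 to 0.27) and ERCC8 (-0.19 to 0.29) spanned 0.

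Collagens of the fibroblast list also differed in level between the siRNA groups. The summed level of 6 fibroblast markers was 2.89 to 4.61 FPKM with siFOXN3-2, 0.607 to 0.860 FPKM with siFOXN3-1 and 1.03 to 1.28 FPKM with siControl, and 2 of 6 reached 1 FPKM with siFOXN3-2, none with siFOXN3-1 and 1 with siControl. COL1A2 was at 0.734 to 1.22 FPKM with siFOXN3-2, 0.0148 to 0.0281 FPKM with siFOXN3-1 and 0.00959 to 0.0229 FPKM with siControl, while PDGFRB lay between 0.0456 and 0.157 FPKM over all 9 samples, with overlapping ranges in the 3 groups. DCN stayed at or below 0.0844 FPKM in all samples and LUM was at 0 in all siControl samples. The summed level of 5 immune markers was 1.47 to 1.94 FPKM with siFOXN3-2, 0.111 to 0.154 FPKM with siFOXN3-1 and 0.462 to 1.15 FPKM with siControl, most of it LYZ with siFOXN3-2, and PTPRC and CD3E were at 0 in all siFOXN3-1 samples. The part of these markers in the differences between the siRNAs was not tested.

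Per length, the order of the members with siControl was ERCC1, DDB1, XPC, DDB2, XPA, ERCC8, ERCC4, ERCC6 and ERCC5, and no neighbours in that order overlapped. With siFOXN3-1 DDB2 stood above XPC (4.90 ± 0.102 against 4.18 ± 0.438 FPKM, SD, n = 3 each) with no overlap, and ERCC6 and ERCC4 overlapped. With siFOXN3-2 DDB2, XPA and XPC overlapped, with DDB2 at 3.87 to 4.07 FPKM, XPA at 3.46 to 4.20 FPKM and XPC at 3.50 to 4.15 FPKM, as did ERCC6 and ERCC4. The rest of the order was the same in all 3 groups. ERCC1 was at 46.6 ± 2.99 FPKM and ERCC5 at 0.412 ± 0.0443 FPKM with siControl, which marks the span of the members. On the other strand, LSM3 and 2 unnamed genes lie over 30.4% of the XPC exon bases and TKFC over 3.73% of those of DDB1, while DDB2 and ERCC6 share none.

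Among tested protein-coding genes, the profiles over the 9 samples closest to that of XPC were those of KAT6B (distance 0.137), DGLUCY (0.181) and LRRC8D (0.193). The distance was Euclidean, between log2(FPKM + 1) values centred on the siControl mean. KAT6B, a histone acetyltransferase, averaged 1.11 FPKM with siFOXN3-1, 0.938 FPKM with siFOXN3-2 and 2.79 FPKM with siControl, and its log2 change was -0.84 with siFOXN3-1 and -0.97 with siFOXN3-2. ERCC1 had the highest mean of both log2 changes among the members (-0.04). Its closest profiles among tested protein-coding genes were those of MAGEA4 (0.178), MAGEA3 (0.184) and PKIG (0.223). MAGEA4 and MAGEA3 belong to a family of genes of similar sequence, so their own levels may be uncertain.

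The other genes of excision repair were read from 6 lists, with counts on the deposited scale and then with median-ratio scaling. They stand beside the shares of all tested genes: with siFOXN3-1 19.3% higher and 45.3% lower, with siFOXN3-2 24.1% higher and 39.2% lower, and 30.8 to 31.3% in each direction when scaled. No list was tested as a list. Of 9 tested genes of TFIIH, the complex that opens the helix, 3 rose and 6 fell with siFOXN3-1, and 3 rose and 4 fell with siFOXN3-2 (when scaled, 3 and 4 with siFOXN3-1, 4 and 2 with siFOXN3-2). The median log2 change was -0.25 with siFOXN3-1 and -0.07 with siFOXN3-2 (-0.10 and 0.03 with those siRNAs when scaled). GTF2H4 was below the filter. The 3 that rose on the deposited scale form the kinase module, with CDK7 at 48.4 ± 3.37 FPKM with siFOXN3-1, 68.7 ± 7.81 with siFOXN3-2 and 30.5 ± 1.82 with siControl (log2 change 0.65 with siFOXN3-1 and 1.14 with siFOXN3-2). The others were CCNH (0.62 with siFOXN3-1, 0.90 with siFOXN3-2) and MNAT1, which was named after its values were seen (0.44 with siFOXN3-1, 0.71 with siFOXN3-2). ERCC2, the helicase, was at 19.8 ± 0.124 FPKM with siFOXN3-1, 26.7 ± 1.88 FPKM with siFOXN3-2 and 32.6 ± 1.38 FPKM with siControl. Its log2 change was -0.69 with siFOXN3-1 (limma adjusted p = 5.04e-06) and -0.28 with siFOXN3-2 (adjusted p = 0.00219).

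Of 6 partners in recognition and the CUL4 ligase, 3 rose and 1 fell with each siRNA (4 and 1 when scaled), with a median log2 change of 0.11 with siFOXN3-1 and 0.27 with siFOXN3-2 (0.31 and 0.38 with those siRNAs when scaled). The scaffold CUL4A fell, with a log2 change of -0.47 with siFOXN3-1 (limma adjusted p = 1.95e-05) and -0.32 with siFOXN3-2 (adjusted p = 0.000308). Its paralogue CUL4B rose, by 0.31 with siFOXN3-1 (adjusted p = 0.00230) and 0.50 with siFOXN3-2 (adjusted p = 0.000109). Of 9 subunits of the COP9 signalosome, which removes NEDD8 from these ligases, 2 rose and 4 fell with siFOXN3-1, and 3 rose and 3 fell with siFOXN3-2 (when scaled, 4 and 3 with siFOXN3-1, 4 and 1 with siFOXN3-2). Its median log2 change was -0.13 with siFOXN3-1 and -0.02 with siFOXN3-2, and 0.05 and 0.08 with those siRNAs when scaled. COPS7A fell (-0.71 with siFOXN3-1, -0.60 with siFOXN3-2), while COPS2 (0.54 with siFOXN3-1, 0.59 with siFOXN3-2) and COPS8 (0.18 with siFOXN3-1, 0.50 with siFOXN3-2) rose.

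Of 7 partners of transcription-coupled repair, 2 rose and 2 fell with siFOXN3-1, and 4 rose and 1 fell with siFOXN3-2 (when scaled, 5 rose with siFOXN3-1, and 5 rose and 1 fell with siFOXN3-2). The median log2 change was 0.11 with siFOXN3-1 and 0.21 with siFOXN3-2 (0.29 and 0.31 with those siRNAs when scaled). TCEA1, which helps stalled polymerase to cut back its transcript, rose (log2 change 0.27 with siFOXN3-1, 0.64 with siFOXN3-2). USP7, the deubiquitinase that acts with UVSSA, rose too (0.25 with siFOXN3-1, 0.21 with siFOXN3-2). HMGN1, a nucleosome-binding protein, fell (-0.27 with siFOXN3-1, -0.50 with siFOXN3-2). Without siFOXN3-2 replicates 2 and 3 the changes with siFOXN3-2 were 0.52 for TCEA1, 0.15 for USP7 and -0.64 for HMGN1. The HMGN1 call with siFOXN3-1 was lost when scaled (-0.06, adjusted p = 0.470). Of 21 genes of gap filling and ligation, 13 fell and the other 8 did not pass with siFOXN3-1, and 4 rose and 10 fell with siFOXN3-2 (when scaled, 9 fell with siFOXN3-1, and 4 rose and 8 fell with siFOXN3-2). The median log2 change was -0.33 with siFOXN3-1 and -0.20 with siFOXN3-2 (-0.12 and -0.09 with those siRNAs when scaled). PCNA, the sliding clamp, was at 45.6 ± 3.47 FPKM with siFOXN3-1, 69.5 ± 4.35 FPKM with siFOXN3-2 and 89.7 ± 7.93 FPKM with siControl (log2 change -0.96 with siFOXN3-1, -0.36 with siFOXN3-2). POLE2, a subunit of polymerase epsilon, fell (-0.83 with siFOXN3-1, -0.71 with siFOXN3-2), as did LIG1, the replicative ligase (-0.57 with siFOXN3-1, -0.72 with siFOXN3-2).

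Of 4 other genes of ultraviolet sensitivity and trichothiodystrophy, 1 rose and the other 3 did not pass with siFOXN3-1, and 3 rose and 1 fell with siFOXN3-2 (when scaled, 3 rose with siFOXN3-1, and 3 rose and 1 fell with siFOXN3-2). The median log2 change was 0.14 with siFOXN3-1 and 0.40 with siFOXN3-2 (0.32 and 0.50 with those siRNAs when scaled). POLH, the polymerase that copies past ultraviolet damage and is lost in the variant form of xeroderma, was at 10.6 ± 0.406 FPKM with siFOXN3-1, 7.80 ± 1.02 FPKM with siFOXN3-2 and 11.2 ± 0.475 FPKM with siControl. Its log2 change was -0.08 with siFOXN3-1 (adjusted p = 0.401, and 0.11 when scaled) and -0.48 with siFOXN3-2 (limma adjusted p = 0.000433). GTF2E2, a subunit of the initiation factor TFIIE, rose (0.39 with siFOXN3-1, 0.65 with siFOXN3-2), and MPLKIP had changes of 0.16 with siFOXN3-1 (adjusted p = 0.124) and 0.44 with siFOXN3-2 (adjusted p = 0.00110).

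Without siFOXN3-2 replicates 2 and 3, where 18.7% of all tested genes were called higher and 30.6% lower with siFOXN3-2, 3 TFIIH genes rose and 2 fell, and 3 recognition and CUL4 genes rose and 1 fell. In that fit 3 COP9 genes rose and 2 fell, 2 transcription-coupled partners rose and 1 fell, and 2 of the 4 other ultraviolet genes rose and 1 fell. Of the gap filling genes 8 fell and the other 13 did not pass.

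**Figure D4:**
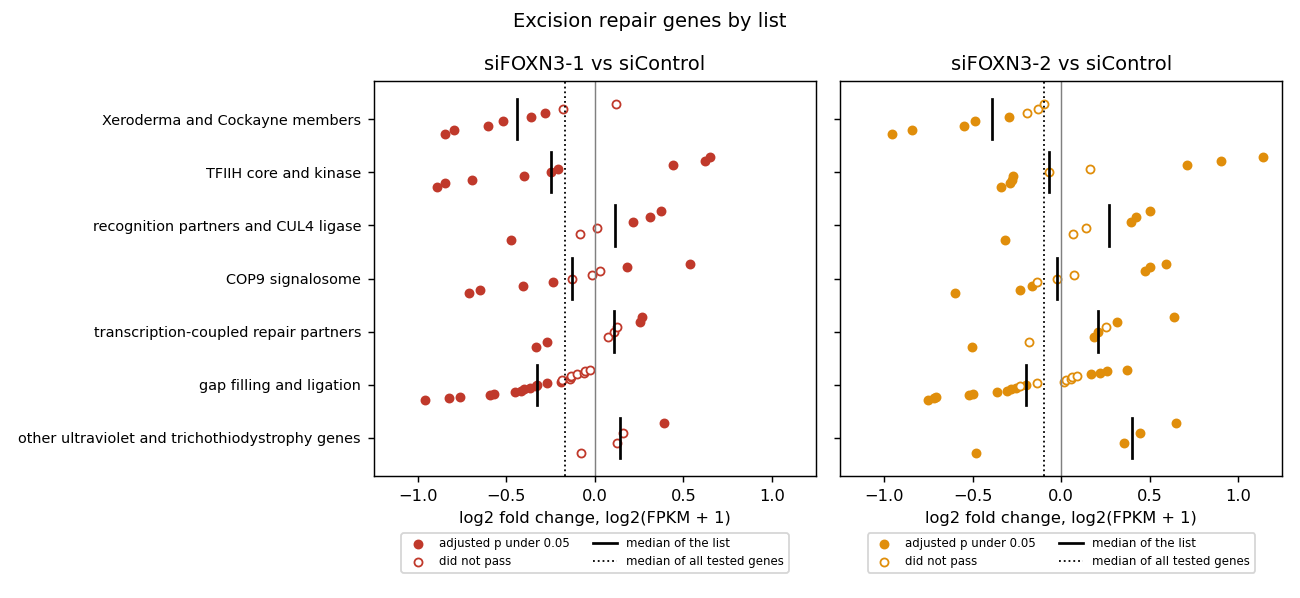
Log2 fold change (x axis, difference of log2(FPKM + 1)) of each tested gene in the 9 members' list and 6 other excision repair lists, with siFOXN3-1 (left) and siFOXN3-2 (right) against siControl; filled points have an adjusted p under 0.05, the black bar is the list's median and the dotted line the median of all tested genes. The members' median is at -0.44 and -0.39, and the TFIIH list has genes on both sides of 0.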

How the data were processed

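RNA was sequenced from 9 samples, and the authors deposited 1 table of FPKM per gene. Per the submitters' processing notes, fastp 0.14.0, HISAT2 2.1.0 and StringTie 1.3.3b were used on GRCh38, and which annotation release and counting options were used is not given in the sources used here. Per the labels' protocols, libraries of polyadenylated RNA were made with an NEBNext Ultra RNA kit. Members and lists were chosen with earlier results of these data known.

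Groups were taken from the sample titles. Values were analysed as log2(FPKM + 1). Genes averaging at least 1 FPKM were kept (12707, with 22082 left out), and limma 3.58.1 (R 4.3.3) fitted 1 mean per group, with eBayes moderation along a trend in expression (degrees of freedom 6 residual, 4.02 prior). Tests were two-sided with Benjamini-Hochberg adjustment over all tested genes. Named genes were the 9 members, FOXN3 and RAD23B. Of each other list they were the 3 genes with the smallest adjusted p over both siRNAs together and any with an absolute log2 change of at least 1. Also named were the 3 protein-coding genes closest in profile to each of the members with the lowest and highest mean change. A gene in the fixed marker lists and a motif that was searched are not reported here.

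Exon lengths of GENCODE 29 turned the FPKM steps into depth, and 98.2 to 98.3% of values worth 1 to 50 reads were whole within 0.05. Whole reads were used only in voom fits (12699 tested genes). Depth limits ERCC5, ERCC4 and XPA most. Alternatives were other pseudocounts, filters, scalings, variance models, call rules and gene sets, only the compared groups, the replicate block, and leaving out each sample. A voom fit with no filter and a fit without siFOXN3-2 replicates 2 and 3 were added after seeing the data. Scripts were tested on simulated data. Ratios, motifs and figures used scipy 1.17.1, pandas 2.3.3, matplotlib 3.10.9 and numpy 2.4.6 in Python 3.11.15. Sequences are from RefSeq (GRCh38.p14).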

Additional observations from a re-analysis of the deposited data

Results flagged for a closer look

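The effects of the siRNAs on 3 of 8 tested members differed by the limma test of siFOXN3-2 against siFOXN3-1. In that test 25.4% of all tested genes were called higher and 10.7% lower. XPA was higher with siFOXN3-2, by 0.31 on the log2 scale, a call lost with median-ratio scaling and with the replicate block. DDB2 was lower with siFOXN3-2, with a difference of -0.24, and neither XPA nor DDB2 had overlapping samples between the siRNAs. ERCC1 was lower with siFOXN3-2 too, with a difference of -0.31, and its highest siFOXN3-2 sample (43.6 FPKM) was below its lowest siFOXN3-1 sample (47.4 FPKM). The share of all tested genes whose samples separate in this way was not computed. Of the siFOXN3-2 samples, 2 carry treatment labels that name other siRNAs.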

How the results depend on the processing

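Of 142 repeated counts of members called, 126 stayed within 1.5 times the reported count, with counts of 0 that stayed at 0 among them. Of 535 repeated fold changes 492 kept their direction and side of the threshold, while 15 newly passed it, 18 no longer did and 10 turned direction. Other filters, variance models, the block or leaving out samples of the third group cannot move a fold change itself. In those repeats the direction was fixed, so these tallies do not measure robustness. With a log2 change of at least 0.5 required, 4 members were lower with siFOXN3-1 (22.4% of all tested genes) and 3 with siFOXN3-2 (18.7%). By that rule 0 members were higher (3.74% of all tested genes) and 0 lower (2.80%) in siFOXN3-2 than in siFOXN3-1. With a mean of at least 5 FPKM, which leaves fewer genes, 3 of 4 tested members were lower with siFOXN3-1 (41.3% of all genes tested) and 3 of 4 with siFOXN3-2 (34.9%). Median-ratio scaling gave 1 member higher with siFOXN3-1 (31.3% of all tested genes). The 1 member higher in siFOXN3-2 than in siFOXN3-1 (25.4% of all tested genes) became 0 with median-ratio scaling (15.3%), no filter (6.89%) and quantile normalization (16.3%). The count became 2 with protein-coding genes only (31.5%) and with voom on recovered reads (27.0%). Over the fits that left out 1 sample each it ranged from 0 to 1, where 18.3 to 24.0% of all tested genes were called higher. Without siFOXN3-2 replicates 2 and 3, which leaves 1 siFOXN3-2 sample, the median log2 change of the members was -0.43 against siControl and -0.08 against siFOXN3-1. Over all tested genes it was -0.08 against siControl and 0.10 against siFOXN3-1. The cause of the differing counts was not tested.

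Direction turned for changes near 0. With median-ratio scaling DDB1 was 0.0100 with siFOXN3-2, and the ERCC8 difference between siFOXN3-2 and siFOXN3-1 was -0.0118. With quantile normalization ERCC8 was 0.0743 with siFOXN3-1 and 0.0698 with siFOXN3-2, and its difference between them was -0.00452. The ERCC4 difference between siFOXN3-2 and siFOXN3-1 was 0.0864, 0.00326 and 0.00272 without siFOXN3-1 replicate 1, siFOXN3-2 replicate 1 and siFOXN3-2 replicate 2, in a range of -0.0903 to 0.0864 over all fits that left out 1 sample. Without siFOXN3-2 replicates 2 and 3, DDB1 was 0.0165 with siFOXN3-2 and the ERCC8 difference was -0.0633. With 1 FPKM added to both genes of a ratio, the log2 ratios against siControl were -0.32 and -0.75 for DDB2 to DDB1, -1.22 and -1.35 for XPC to RAD23B, -0.64 and -0.35 for ERCC4 to ERCC1, and 0.18 and 0.16 for ERCC8 to ERCC6, each with siFOXN3-1 and siFOXN3-2.

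Same-numbered samples correlated at -0.280 to 0.0528 in their deviations from the group means, and differently numbered ones at -0.161 to 0.274. These ranges overlap, and the deviations of a group sum to 0, so they do not settle whether the numbers pair samples. With the replicate block 0 members were higher in siFOXN3-2 than in siFOXN3-1, where 19.0% of all tested genes were called higher. XPA had a limma adjusted p of 0.0569 there, and the block changed no other call of a member.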
